A study of Mus musculus with 2 samples.

Results

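Killer cell lectin-like receptor genes carry symbols that start with Klr, and 26 of the 30905 genes in the count tables do. All 26 were taken by symbol alone, and their UMIs (unique molecular identifiers, each counting 1 captured RNA molecule) were followed through every cell class. The family codes for type II membrane proteins with a lectin-like outer domain, best known from natural killer (NK) cells. There, many inhibitory members read class I MHC molecules and some activating members read stress or viral ligands. Inhibitory members recruit phosphatases through a cytoplasmic motif, whereas activating members signal through the adaptors DAP12, coded by Tyrobp, or DAP10, coded by Hcst. In the intestine the same receptors are also known from innate lymphoid cells, from gamma delta and CD8 T cells, and from some myeloid cells.

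The cells were CD45+ leukocytes sorted from the colons of male C57BL/6 mice in which tumours had been induced with azoxymethane (12 mg/kg) and 3 cycles of 2.5% dextran sodium sulfate, each of 7 days followed by 14 days of water. The FMD group received a fasting-mimicking diet from the second cycle on, and the ad libitum group was fed freely. Each group is 1 library of cells pooled from 4 mice, made with the 10x Genomics 3′ kit, and both carry the same carcinogen and colitis treatment. The tissue is labelled colorectal cancer, although the extraction text also mentions location-matched normal colon. With 1 library per diet there is no replicate, so differences between diets have no test, and all intervals are 95% intervals that cover counting error only.

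Sequencing gave 35280790 UMIs in 5877 barcodes from FMD mice, and 35712762 UMIs in 6089 barcodes from ad libitum mice. After filtering, 4608 FMD cells and 4855 ad libitum cells remained, with median depths of 5738.5 and 5503 UMIs per cell, and 7 barcodes occurred in both libraries. Cells were grouped with no Klr gene among the variable genes, and classes were named from other markers. Levels, written CPM, are UMIs of a gene per 1000000 UMIs outside immunoglobulin and mitochondrial genes, pooled over the cells of a class. The 3′ kit counts 1 end of each RNA, so levels are compared across classes for 1 gene, not between genes. Over all kept cells, 9 of 12 immediate early and heat shock genes had intervals below 0 in the FMD library with a median log2 ratio of −0.34, while 12.2% of all genes had such an interval and the median of all genes was 0.01. The part of such handling-sensitive expression in the Klr values was not tested.

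All 26 members lie on chromosome 6 of GRCm38 and are annotated as protein-coding genes in GENCODE vM21. Of these, 24 sit between positions 128609227 and 131247362, the natural killer gene complex, while Klrg1 (122270596 to 122282882, minus strand) and Klrg2 (38625693 to 38637242, minus strand) lie apart. Members of the complex arose by duplication, and their transcripts can be hard to tell apart. Of the 50-base words in the last 300 bases of Klrc1 transcripts, 60.9% also occurred in transcripts of another gene, namely Klrc2 and Klrc3. The share was 59.8% for Klra10, 49.0% for Klra9, 39.0% for Klra3, 27.0% for Klra7, 24.2% for Klrb1b and 15.2% for Klrc2, between 10.2% and 19.1% for Klra1, Klrb1a, Klrb1c, Klrc3 and Klra8, and 0% for Klrd1, Klrk1, Klrg1, Klre1, Klri2, Klra6, Klra4, Klra17 and Klra2. Counts of the genes with shared words are uncertain, since reads from them could be assigned to a neighbour or dropped.

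Promoter windows of 250 bases before to 50 bases after the gene start are shown for 5 members described here, found in T, innate lymphoid, dendritic-like or macrophage-like cells. They come from RefSeq on GRCm38.p6, are written 5′ to 3′ on the gene's strand, and hold in capitals the matches to 4 motifs searched on both strands, of which the Klra6 window has none. Klrc1 and Klrc2 code for the NKG2 subunits that pair with CD94, Klrk1 codes for NKG2D, Klra6 for Ly49F and Klra2 for Ly49B.
Klrc1, chr6:129678924-129679223, minus strand: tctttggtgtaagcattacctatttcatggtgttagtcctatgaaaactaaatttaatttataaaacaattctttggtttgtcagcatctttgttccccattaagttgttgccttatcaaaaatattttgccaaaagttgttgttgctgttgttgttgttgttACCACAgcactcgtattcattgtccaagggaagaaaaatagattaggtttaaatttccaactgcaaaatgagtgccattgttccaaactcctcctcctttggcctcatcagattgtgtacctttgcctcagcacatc
Klrc2, chr6:129660507-129660806, minus strand: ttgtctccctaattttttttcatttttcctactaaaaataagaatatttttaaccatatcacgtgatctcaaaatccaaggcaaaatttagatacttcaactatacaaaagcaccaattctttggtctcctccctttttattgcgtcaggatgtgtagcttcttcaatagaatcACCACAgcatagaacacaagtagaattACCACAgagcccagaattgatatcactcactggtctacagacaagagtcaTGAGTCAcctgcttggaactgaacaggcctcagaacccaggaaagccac
Klrk1, chr6:129623815-129624114, minus strand: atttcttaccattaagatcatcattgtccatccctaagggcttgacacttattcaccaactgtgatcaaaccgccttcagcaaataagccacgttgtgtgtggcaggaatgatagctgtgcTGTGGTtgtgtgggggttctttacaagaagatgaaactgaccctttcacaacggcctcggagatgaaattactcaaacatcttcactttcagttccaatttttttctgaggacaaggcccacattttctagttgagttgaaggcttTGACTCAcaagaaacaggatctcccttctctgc
Klra6, chr6:130026905-130027204, minus strand: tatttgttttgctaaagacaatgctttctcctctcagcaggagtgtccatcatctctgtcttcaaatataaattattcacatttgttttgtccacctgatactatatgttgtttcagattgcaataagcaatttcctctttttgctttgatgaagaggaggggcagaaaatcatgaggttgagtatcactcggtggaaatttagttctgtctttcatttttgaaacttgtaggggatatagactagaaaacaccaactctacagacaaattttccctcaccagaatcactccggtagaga
Klra2, chr6:131247313-131247612, minus strand: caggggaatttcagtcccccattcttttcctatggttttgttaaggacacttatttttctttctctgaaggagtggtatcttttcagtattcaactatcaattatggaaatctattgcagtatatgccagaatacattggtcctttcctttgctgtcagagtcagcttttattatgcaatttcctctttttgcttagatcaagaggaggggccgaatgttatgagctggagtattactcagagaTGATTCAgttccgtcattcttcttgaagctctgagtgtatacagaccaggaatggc

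The RefSeq table held 28 windows for 23 members. The RUNX core TGTGGT, read as ACCACA on the other strand, occurred in windows of 8 of the 23 members (Klra1, Klrb1a, Klrb1c, Klrc1, Klrc2, Klrc3, Klre1 and Klrk1), that is in 32.1% of the 28 windows against 16.8% of all 32851 windows. The AP-1 site TGANTCA was found for Klra2, Klrc2, Klrc3 and Klrk1, in 17.9% of the member windows and 7.81% of all windows. The GATA core AGATAA was found for Klra5, Klra7 and Klrb1f, in 10.7% of member windows and 11.2% of all windows, and the T-box core GGTGTGA for Klra1 alone, in 3.57% and 3.98%. The windows of Klrc2 and Klrc3 were 98.7% identical. A match says only that the letters are present, and the windows of neighbours such as Klrc2 and Klrc3 are not independent.

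Over all kept cells the summed family level was close in the 2 libraries. The 26 genes had 5191 UMIs, or 177 CPM (172 to 182), in FMD cells and 5414 UMIs, or 184 CPM (179 to 189), in ad libitum cells, a log2 ratio of −0.05 with an interval of −0.11 to 0.00. Of the 26 members, 13 had at least 100 UMIs over both libraries, 13 had between 1 and 99, and none was at 0. None of the 13 was at least 2-fold apart between diets, against 1.62% of the 10700 genes with at least 100 UMIs. The interval of the log2 ratio lay above 0 for 3 of the 13 and below 0 for 5, while 16.8% of all genes had an interval above 0 and 12.2% below. The median log2 ratio of the 13 was −0.01, beside 0.01 over all genes tested. Fewer cells of a class and less RNA per cell cannot be told apart in these pooled levels.

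The 3 members with intervals above 0 were Klrg1, Klrb1b and Klrb1f. Klrg1, whose product is an inhibitory receptor for cadherins, had 486 UMIs in FMD cells and 297 in ad libitum cells (log2 ratio 0.72, 0.51 to 0.93). Klrb1b, which codes for an inhibitory NKR-P1 receptor that binds the Clec2d product, had 624 UMIs in FMD cells and 404 in ad libitum cells (0.63, 0.45 to 0.82). Klrb1f, an NKR-P1 gene whose product binds the Clec2i product, had 103 UMIs in FMD cells and 73 in ad libitum cells (0.50, 0.06 to 0.96). The 5 members with intervals below 0 were 3 genes of the CD94/NKG2 receptors and 2 Ly49 genes. Klrc1, coding for the inhibitory subunit NKG2A, had 866 UMIs in FMD cells and 1244 in ad libitum cells (−0.52, −0.64 to −0.39). Klrc2, coding for the activating subunit NKG2C, had 258 UMIs in FMD cells and 358 in ad libitum cells (−0.47, −0.70 to −0.23). Klrd1, coding for their shared partner CD94, had 1119 UMIs in FMD cells and 1342 in ad libitum cells (−0.26, −0.37 to −0.14). Klra6 had 38 UMIs in FMD cells and 72 in ad libitum cells (−0.92, −1.52 to −0.33), but its ratio turned to 0.48 with cells thinned to 1000 UMIs. Klra1, coding for the inhibitory receptor Ly49A, had 52 UMIs in FMD cells and 77 in ad libitum cells (−0.56, −1.10 to −0.03).

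**Figure D1:**
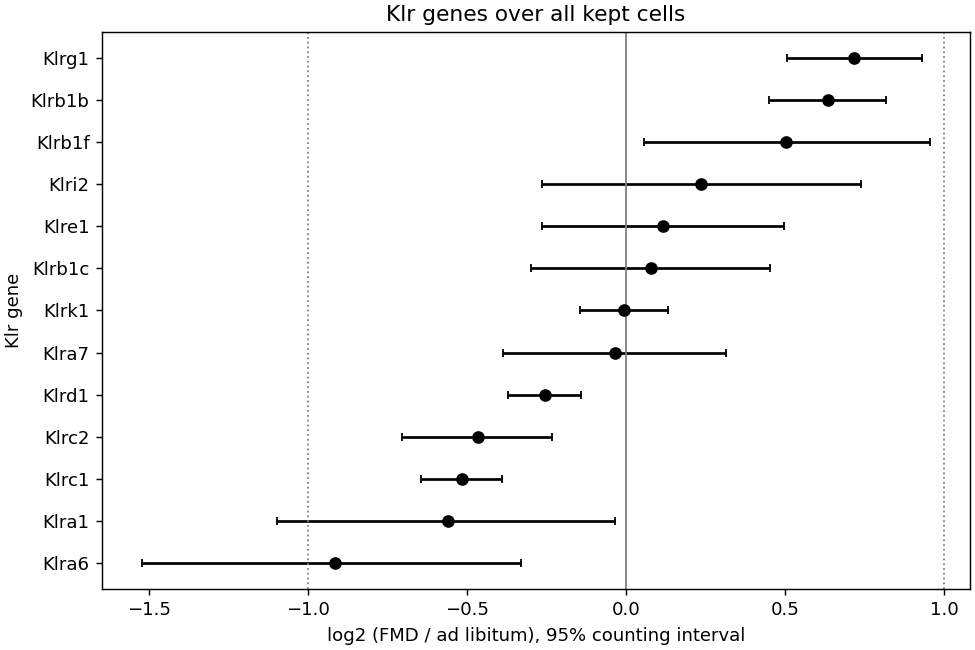
Log2 ratio of FMD over ad libitum CPM over all kept cells (x axis) for the 13 Klr genes with at least 100 UMIs, with 95% counting intervals as bars and dotted lines at a 2-fold difference. Klrg1, Klrb1b and Klrb1f lie above 0, Klra6, Klra1, Klrc1, Klrc2 and Klrd1 lie below 0, and no point reaches 2-fold.

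The other 5 of the 13 had intervals across 0. Klrk1 had 844 UMIs in FMD cells and 851 in ad libitum cells, Klra7 had 136 and 140, Klrb1c, the gene of NK1.1, had 124 and 118, Klre1 had 123 and 114, and Klri2 had 75 and 64. The members below 100 UMIs, with FMD UMIs first and ad libitum UMIs second, were Klrb1a (48 and 51), Klra2 (68 and 24), Klra8 (46 and 24), Klra17 (38 and 25), Klra9 (24 and 37), Klra4 (39 and 9), Klra3 (24 and 23), Klrb1 (18 and 24), Klra5 (12 and 17), Klri1 (16 and 9), Klrg2 (8 and 15), Klrc3 (1 and 2) and Klra10 (1 and 0). Klra4 and Klra8, which code for the activating receptors Ly49D and Ly49H, came from very few cells. In the FMD library 1 cell held 33 of the 39 Klra4 UMIs and 36 of the 46 Klra8 UMIs, and in the ad libitum library the fullest cells held 5 and 10.

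The classes with the highest family level were the same in both libraries, and those in the middle changed order. The NK or innate lymphoid-like class stood highest at 2990 CPM (2810 to 3190) in 51 FMD cells and 3020 CPM (2770 to 3280) in 27 ad libitum cells. Innate-like T-like cells followed at 1340 CPM in 77 FMD cells and 1340 CPM in 124 ad libitum cells. Effector CD8 T-like cells had 957 CPM (878 to 1040) in 84 FMD cells and 1240 CPM (1170 to 1320) in 105 ad libitum cells. Gamma delta T-like cells had 726 CPM in FMD and 671 CPM in ad libitum cells, and their intervals overlapped those of dendritic-like cells at 625 and 685 CPM. Regulatory T-like cells led by Penk had 418 CPM (367 to 474) in FMD and 252 CPM (218 to 290) in ad libitum cells, and Gata3-high innate lymphoid-like cells had 393 CPM (344 to 447) and 190 CPM (131 to 266). Helper T-like cells led by Ccl20 had 219 CPM (198 to 242) in FMD and 368 CPM (342 to 394) in ad libitum cells, so they were below both other classes in FMD and above both in ad libitum. Their log2 ratio was −0.75, and −0.26 with cells thinned to 1000 UMIs. B-like cells, which are not known for these receptors, gave the background at 4.13 CPM in 2764 FMD cells and 4.63 CPM in 3083 ad libitum cells. Clusters left without a name held 194 FMD and 159 ad libitum cells, at 273 CPM (237 to 312) and 185 CPM (146 to 232).

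**Figure D2:**
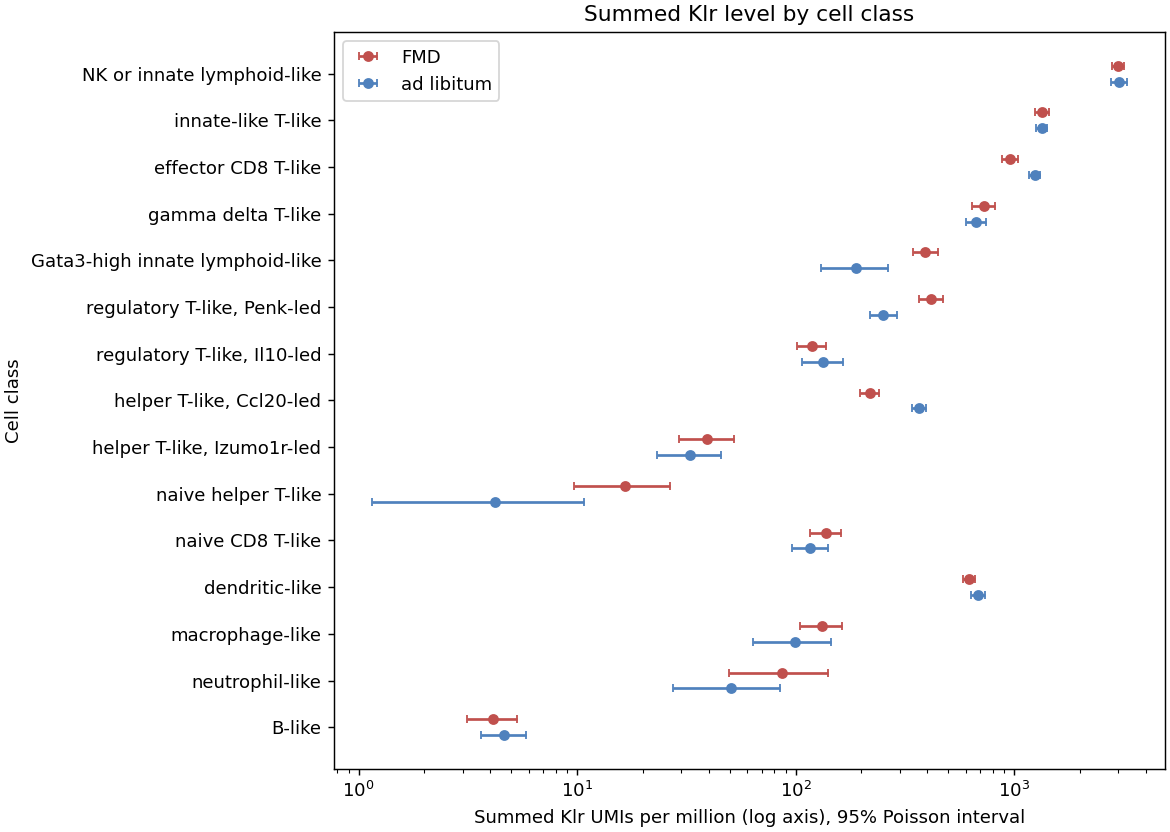
Summed Klr level in CPM (x axis, log scale) in 15 cell classes, FMD points in red above ad libitum points in blue, with 95% Poisson intervals as bars. The NK or innate lymphoid-like class lies near 3000 CPM in both libraries, and the B-like class below 6 CPM.

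Shares of cells were compared at equal depth. With every cell thinned to 1000 UMIs, a Klr UMI was found in 76.0% of FMD and 88.9% of ad libitum NK or innate lymphoid-like cells, in 58.4% and 58.9% of innate-like T-like cells, and in 48.8% and 60.0% of effector CD8 T-like cells. The share was 29.5% of FMD and 38.9% of ad libitum dendritic-like cells, and 0.29% of 2759 FMD and 0.228% of 3076 ad libitum B-like cells. In the Gata3-high innate lymphoid-like class it was 39.7% of 78 FMD cells (28.8 to 51.5) and 8.33% of 24 ad libitum cells (1.03 to 27.0), the ad libitum share resting on 2 cells. That difference depended on the thinning depth. At 2000 UMIs the shares were 45.2% of FMD (33.5 to 57.3) and 30.4% of ad libitum cells (13.2 to 52.9), which overlap, and without thinning they were 79.7% and 83.3%. The family's UMIs were also divided over the classes, where the number of cells and the level per cell cannot be told apart. NK or innate lymphoid-like cells held 18.4% of the family's UMIs in FMD and 10.3% in ad libitum cells, innate-like T-like cells 15.5% and 22.9%, effector CD8 T-like cells 10.5% and 18.0%, and dendritic-like cells 18.7% and 13.9%. Dendritic-like cells were deeper than lymphoid cells, with median totals of 16569 UMIs in FMD and 14628 in ad libitum cells, and after thinning to 1000 UMIs their shares were 6.20% and 5.61%.

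**Figure D3:**
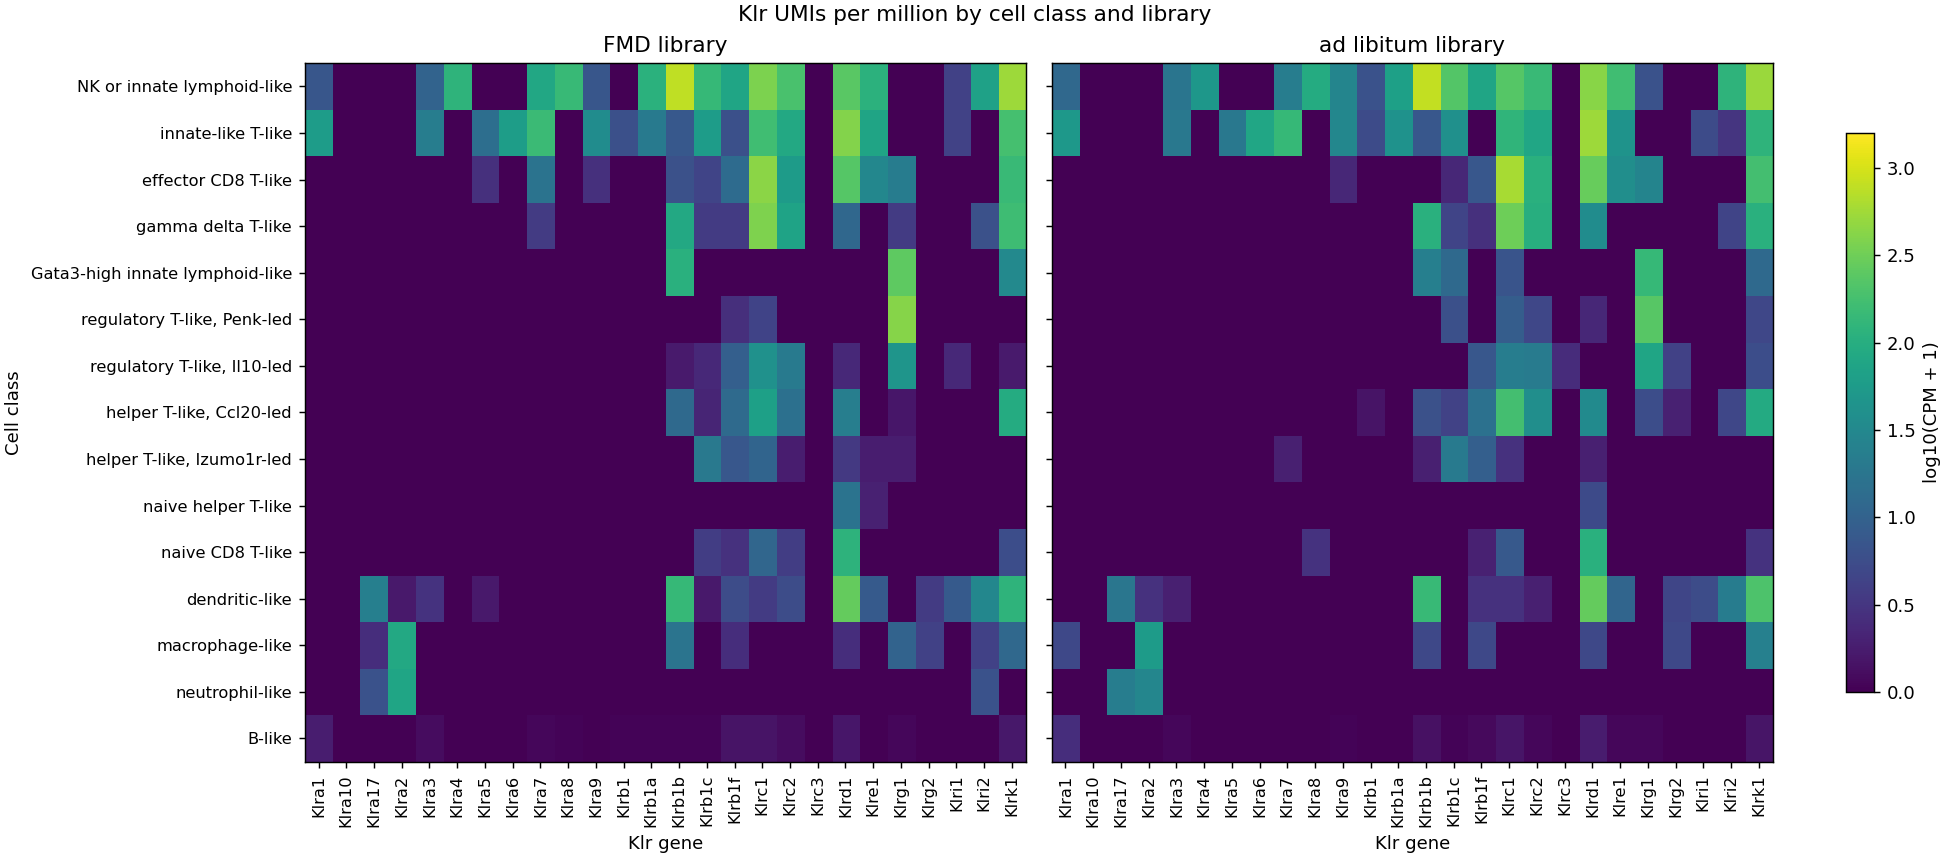
Level of each of the 26 Klr genes (columns) in 15 cell classes (rows), as log10(CPM + 1) on 1 colour scale, with the FMD library on the left and the ad libitum library on the right. Most Klra genes are bright in the innate-like T-like and NK or innate lymphoid-like rows, Klrg1 in the Penk-led regulatory and Gata3-high rows, and Klra2 in the macrophage-like and neutrophil-like rows.

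The Ly49 genes (Klra) split into lymphoid and myeloid members. Innate-like T-like cells, marked by Fcer1g at 415 CPM and Xcl1 at 548 CPM beside Cd3e at 420 CPM but with Zbtb16, the defining factor of several innate-like T lineages, at only 5.25 CPM, held 98.2% of Klra6 UMIs, 86.2% of Klra5, 79.3% of Klra7, 78.7% of Klra9, 63.8% of Klra3 and 62.8% of Klra1. Their products are inhibitory Ly49 receptors. Within that class Klra7 had 152 CPM in FMD and 138 CPM in ad libitum cells, Klra6 had 60.2 and 77.7 CPM, and Klra1 had 58.5 and 49.6 CPM, and all 3 intervals of the log2 ratio crossed 0. At full depth some cells of that class had UMIs of several Klra genes. Among FMD cells 19 had 1 such gene, 17 had 2 and 8 had 3 or more. Among ad libitum cells 40 had 1, 25 had 2 and 10 had 3 or more. These counts depended on depth. With cells thinned to 1000 UMIs, 15 FMD cells had at least 1 Klra gene and 3 had at least 2. In ad libitum cells those counts were 32 and 4. Klra3 and Klra9 share transcript words, and the part of wrongly assigned reads in these counts was not tested. Klra4 and Klra8 were instead found in the NK or innate lymphoid-like class, with 97.9% and 88.6% of their UMIs. Klra4 stood there at 119 CPM in FMD and 48.9 CPM in ad libitum cells (log2 ratio 1.29, 0.21 to 2.52), a ratio of −0.46 without the fullest cell of each library. Klra7 was at 81.6 CPM in FMD and 21.8 CPM in ad libitum cells of that class (1.91, 0.38 to 3.89). That value rests on 26 UMIs in 5 of 51 FMD cells and 4 UMIs in 2 of 27 ad libitum cells. The fullest cell held 10 of the FMD and 3 of the ad libitum Klra7 UMIs.

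Klra2 and Klra17 were myeloid. Klra2, a Ly49 gene known from myeloid cells, had 72.8% of its UMIs in macrophage-like and 23.9% in neutrophil-like cells. It stood at 84.1 CPM in 62 FMD and 55.5 CPM in 23 ad libitum macrophage-like cells (log2 ratio 0.60, −0.27 to 1.57), and at 75.8 CPM in FMD and 28.8 CPM in ad libitum neutrophil-like cells (1.39, 0.04 to 2.85), the neutrophil-like value resting on 14 and 8 UMIs. Klra17, coding for Ly49Q, which is known from plasmacytoid dendritic cells, had 87.3% of its UMIs in dendritic-like cells, at 23.1 CPM in FMD and 17.3 CPM in ad libitum cells. It was highest in the dendritic-like cluster with Siglech at 315 CPM, at 40.1 CPM in 32 FMD and 36.0 CPM in 30 ad libitum cells. Those levels rest on 19 and 17 UMIs. A Siglech UMI was found in 22 of the cluster's 62 cells. The cluster also had Xcr1 at 30.7 CPM, Clec9a at 40.2 CPM and Cd209a at 171 CPM, so it is not marked by Siglech alone. The keratin genes that lead that cluster came from 1 of its 62 cells. Klra1 also had 29.5% of its UMIs in B-like cells, at 0.825 CPM in FMD and 1.65 CPM in ad libitum cells, on 12 and 26 UMIs.

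CD94 and its NKG2 partners did not keep 1 ratio across classes. Klrc1 made up 97.3% of the Klrc1 plus Klrd1 UMIs in FMD and 90.0% in ad libitum gamma delta T-like cells, 65.4% and 67.7% in effector CD8 T-like cells, and 29.4% and 18.4% in innate-like T-like cells. Naive CD8 T-like cells had Klrd1 at 115 CPM in FMD and 105 CPM in ad libitum cells, while Klrc1 was 8.33% and 6.09% of the pair. Dendritic-like cells had Klrd1 at 280 CPM in FMD and 278 CPM in ad libitum cells with almost no Klrc1, at 0.911% and 0.651% of the pair. In that class Ncr1 was at 0 and Cd3e at 5.66 CPM, beside Flt3 at 112 CPM and Cd209a at 163 CPM. In the NK or innate lymphoid-like class Klrc1 made up 61.0% of the pair in FMD and 34.7% in ad libitum cells, with intervals of 53.8 to 67.9 and 26.3 to 43.9. There Klrc1 was at 374 CPM in FMD and 228 CPM in ad libitum cells (log2 ratio 0.71, 0.19 to 1.25), and Klrd1 was at 239 and 430 CPM (−0.85, −1.32 to −0.38). The fullest cell held 16 of 119 FMD and 9 of 42 ad libitum Klrc1 UMIs, and 17 of 76 FMD and 22 of 79 ad libitum Klrd1 UMIs.

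**Figure D4:**
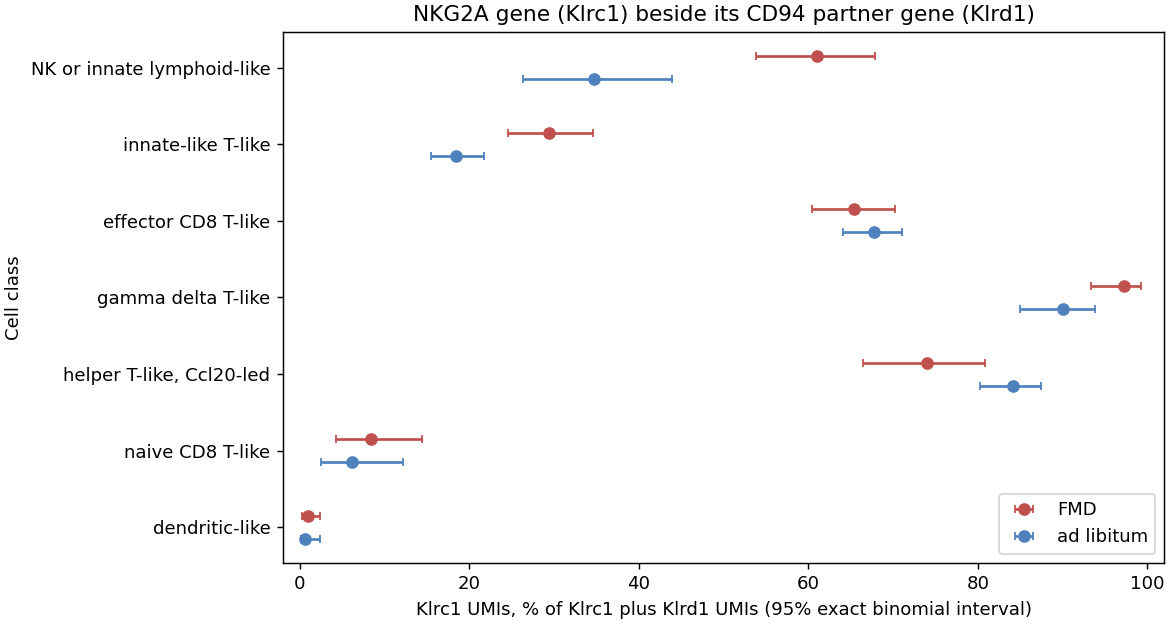
Klrc1 UMIs as a percentage of Klrc1 plus Klrd1 UMIs (x axis) in the 7 named classes with at least 20 such UMIs in each library, FMD in red above ad libitum in blue, with exact binomial 95% intervals. Gamma delta T-like cells lie at 97.3% and 90.0%, and dendritic-like cells below 1%.

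Between diets, helper T-like cells led by Ccl20 differed most clearly in this group. Klrc1 had 114 UMIs in 52 of 217 FMD cells and 370 UMIs in 95 of 271 ad libitum cells, that is 64.4 CPM and 175 CPM (log2 ratio −1.44, −1.76 to −1.14). Klrc2 had 14.1 CPM in FMD and 37.4 CPM in ad libitum cells (−1.41, −2.12 to −0.74), while Klrk1 had 93.3 CPM and 88.6 CPM (0.07, −0.24 to 0.38). Of the 6 members with at least 20 UMIs in the class, 2 were at least 2-fold lower in FMD cells, Klrc1 and Klrc2, where 2.21% of all genes were. Klrb1b alone was at least 2-fold higher, where 1.22% were. It had 20 UMIs in 5 FMD cells and 11 UMIs in 4 ad libitum cells, and its interval crossed 0. Klrc1 and Klrc2 share transcript words, so their joint shift is not 2 independent observations. With cells thinned to 1000 UMIs, Klrc1 was found in 6.91% of FMD cells (3.92 to 11.1) and 9.59% of ad libitum cells (6.36 to 13.7), and those intervals overlap. In all helper T-like cells pooled, immediate early and heat shock genes had a median log2 ratio of 0.06. They went in both directions: of 12 genes, 4 had intervals above 0 and 5 below, where 5.72% and 7.37% of all genes did. Other killer cell genes had a median of −0.31 there, beside −0.02 over all genes, and 6 of 11 had intervals below 0 and 1 above, where 7.37% and 5.72% of all genes did. Ccl5, a chemokine gene, was at 133 CPM in FMD and 373 CPM in ad libitum helper T-like cells (−1.49, −1.63 to −1.35), and Nkg7, a gene of cytotoxic granules, at 55.1 and 86.2 CPM (−0.65, −0.89 to −0.40). The part of these genes' cells in the Klrc1 and Klrc2 values was not tested. Cells with an Il17a or Il17f UMI made up 17.1% of the class in FMD and 27.7% in ad libitum. Among cells without such a UMI, Klrc1 had 92 UMIs in 180 FMD cells and 322 UMIs in 196 ad libitum cells, or 64.9 and 213 CPM (−1.72, −2.07 to −1.38). Among cells with one it had 22 UMIs in 37 FMD cells and 48 UMIs in 75 ad libitum cells, or 62.7 and 80.0 CPM (−0.35, −1.15 to 0.40). Klrk1 had 21 UMIs in FMD and 11 in ad libitum cells with such a UMI (1.71, 0.59 to 2.91). Among cells without one its log2 ratio was −0.20 (−0.53 to 0.13). The split was made at full depth and was not repeated with thinned cells.

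Effector CD8 T-like cells also had lower levels of these genes in FMD. Klrc1 stood at 434 CPM in FMD and 604 CPM in ad libitum cells (log2 ratio −0.48, −0.71 to −0.25), Klrc2 at 56.0 and 105 CPM (−0.90, −1.54 to −0.30) and Klrd1 at 229 and 289 CPM (−0.33, −0.66 to −0.02). All 6 members tested in the class had ratios below 0, none reached 2-fold, and their median was −0.34 beside 0.02 over all genes tested there. At least 2-fold differences in either direction were seen for 4.43% of all genes in the class. Immediate early and heat shock genes had a median log2 ratio of 0.28 there, and their part in these values was not tested. In innate-like T-like cells Klrd1 was at 398 CPM in FMD and 544 CPM in ad libitum cells (−0.45, −0.68 to −0.23), whereas Klrc1 was at 166 and 123 CPM (0.43, 0.03 to 0.83). In gamma delta T-like cells Klrc1 was at 385 CPM in FMD and 313 CPM in ad libitum cells (0.30, −0.02 to 0.62).

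Detection of 2 members in the same cell depended on depth, to a different degree for different pairs. In effector CD8 T-like cells of both libraries Klrc2 was found in 54.4% of cells with Klrc1 and in 4.69% of cells without it. In NK or innate lymphoid-like cells Klre1, whose product forms pairs with those of Klri1 and Klri2, was found in 20 of 38 cells with Klrd1 and in none of the others. In dendritic-like cells Klrk1 was found in 73.2% of cells with Klrd1 and 28.8% of cells without. After thinning to 1000 UMIs the difference between cells with and without the first gene was 4.31 percentage points for the effector CD8 pair, −1.40 for the NK or innate lymphoid pair and 4.82 for the dendritic pair. Some other pairs kept a larger difference after thinning. In effector CD8 T-like cells Klrc1 was found in 66.7% of cells with Klrk1 (14 of 21) and 32.7% without. It was found there in 55.3% of cells with Klrd1 (26 of 47) and 30.3% without. In innate-like T-like cells Klrc1 was found in 34.8% of cells with Klrk1 (8 of 23) and 5.62% without. Klrk1 in effector CD8 T-like cells was found in 10.6% of cells with Klrd1 and 11.3% without.

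Klrk1, coding for the activating receptor NKG2D, which signals through DAP10, had ratios on both sides of 0 across classes. It was at 537 CPM in FMD and 527 CPM in ad libitum NK or innate lymphoid-like cells (log2 ratio 0.03, −0.34 to 0.40). In innate-like T-like cells it was at 182 CPM in FMD and 120 CPM in ad libitum cells (0.61, 0.21 to 1.00), and in gamma delta T-like cells at 158 and 106 CPM (0.58, 0.04 to 1.12). In dendritic-like cells it was at 121 CPM in FMD and 202 CPM in ad libitum cells (−0.73, −1.02 to −0.44), where 18.9% of all genes had an interval that left out 0. By cluster it was at 120 CPM in 60 FMD and 235 CPM in 39 ad libitum cells of the largest, at 137 and 148 CPM in the Siglech cluster, and at 18.6 and 294 CPM in the smallest, with 8 FMD and 10 ad libitum cells.

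Among the NKR-P1 genes, Klrb1b marked the NK or innate lymphoid-like class, at 785 CPM in FMD and 816 CPM in ad libitum cells, with 38.9% of its UMIs there. That class had Ncr1 at 157 CPM, Il22 at 2220 CPM and Eomes at 49.8 CPM with Cd3e at 17.9 CPM, so it holds cells with innate lymphoid and NK markers. Dendritic-like cells held a further 36.1% of Klrb1b UMIs, at 139 CPM in FMD and 141 CPM in ad libitum cells. The Gata3-high innate lymphoid-like class had Gata3 at 1560 CPM. Klrb1b had 63 UMIs in 21 of its 79 FMD cells and 4 UMIs in 2 of its 24 ad libitum cells (log2 ratio 2.23, 0.80 to 4.15). The fullest cell held 3 of those 4 ad libitum UMIs. Klrb1c was found, among other classes, in Izumo1r-led helper T-like cells at 18.6 CPM in FMD and 20.1 CPM in ad libitum cells. It also had at least 20 UMIs in innate lymphoid-like cells pooled. Of 14 members tested there, 4 were at least 2-fold lower in FMD (Klrb1c, Klre1, Klrd1 and Klri2), where 4.7% of all genes were. Klrg1 and Klra7 were at least 2-fold higher, where 3.45% were. The pool holds 79 Gata3-high and 51 NK or innate lymphoid-like FMD cells, and 24 and 27 ad libitum cells. The part of these cell numbers was not tested. Klrb1a was at 20.1 CPM in FMD and 42.1 CPM in ad libitum innate-like T-like cells (−1.07, −2.14 to −0.11). The Klrb1a ratio turned to 0.11 at Leiden resolution 0.5.

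Klre1 and the Klri genes, whose products pair with each other, were spread over cytotoxic and dendritic classes. Innate-like T-like cells held 35.0% of Klre1 UMIs, at 71.9 CPM in FMD and 43.2 CPM in ad libitum cells (log2 ratio 0.74, 0.08 to 1.40). NK or innate lymphoid-like cells held 27.8%, at 113 CPM in FMD and 163 CPM in ad libitum cells (−0.53, −1.27 to 0.22). Dendritic-like cells held 49.6% of Klri2 UMIs and 64.0% of Klri1 UMIs, and Klri2 stood there at 29.6 CPM in FMD and 21.0 CPM in ad libitum cells (0.49, −0.26 to 1.28). By cluster, Klri2 was at 40.9 CPM in FMD and 40.1 CPM in ad libitum cells of the largest dendritic-like cluster, which had Ccr7 at 1740 CPM, and at 4.22 and 2.12 CPM in the Siglech cluster.

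Klrg1 belonged to regulatory and Gata3-high cells. Regulatory T-like cells led by Penk held 53.6% of its UMIs, Gata3-high innate lymphoid-like cells 22.1% and regulatory T-like cells led by Il10 14.6%. In the Penk-led class, with Foxp3 at 509 CPM and Gata3 at 593 CPM, it was at 413 CPM in 91 FMD cells and 230 CPM in 117 ad libitum cells (log2 ratio 0.84, 0.56 to 1.13). In the Gata3-high class it was at 255 CPM in FMD and 138 CPM in ad libitum cells (0.88, 0.26 to 1.57). In the Il10-led class it was at 45.2 CPM in 184 FMD cells and 75.5 CPM in 86 ad libitum cells (−0.74, −1.30 to −0.17). With all regulatory T-like cells pooled it was at 150 and 161 CPM (−0.10, −0.35 to 0.15). Over all kept cells Gata3 itself was at 67.4 CPM in FMD and 39.4 CPM in ad libitum cells (0.77, 0.67 to 0.88), and its part in the Klrg1 values was not tested.

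Across the 15 classes, 63 pairs of a class and a member had at least 20 UMIs. The interval left out 0 for 24 of them, 13 above and 11 below, beside 12.2% of all gene and class pairs, and 11 were at least 2-fold apart, beside 5.44%. By class, the interval left out 0 for 4 of 13 members in NK or innate lymphoid-like cells (10.9% of all genes), 5 of 13 in innate-like T-like (7.52%), 3 of 6 in effector CD8 T-like (9.11%) and 2 of 5 in gamma delta T-like cells (11%). It did so for 2 of 3 members in Gata3-high cells (9.33%), for Klrg1, the 1 member tested in Penk-led regulatory cells (11%), for 2 of 3 in Il10-led regulatory cells (9.48%), 2 of 6 in Ccl20-led helper cells (13.5%) and 1 of 6 in dendritic-like cells (18.9%). The remaining pairs were Klrd1 in naive helper T-like cells (9.08%) and Klra2 in neutrophil-like cells (22.3%). These pairs share cells and genes.

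**Figure D5:**
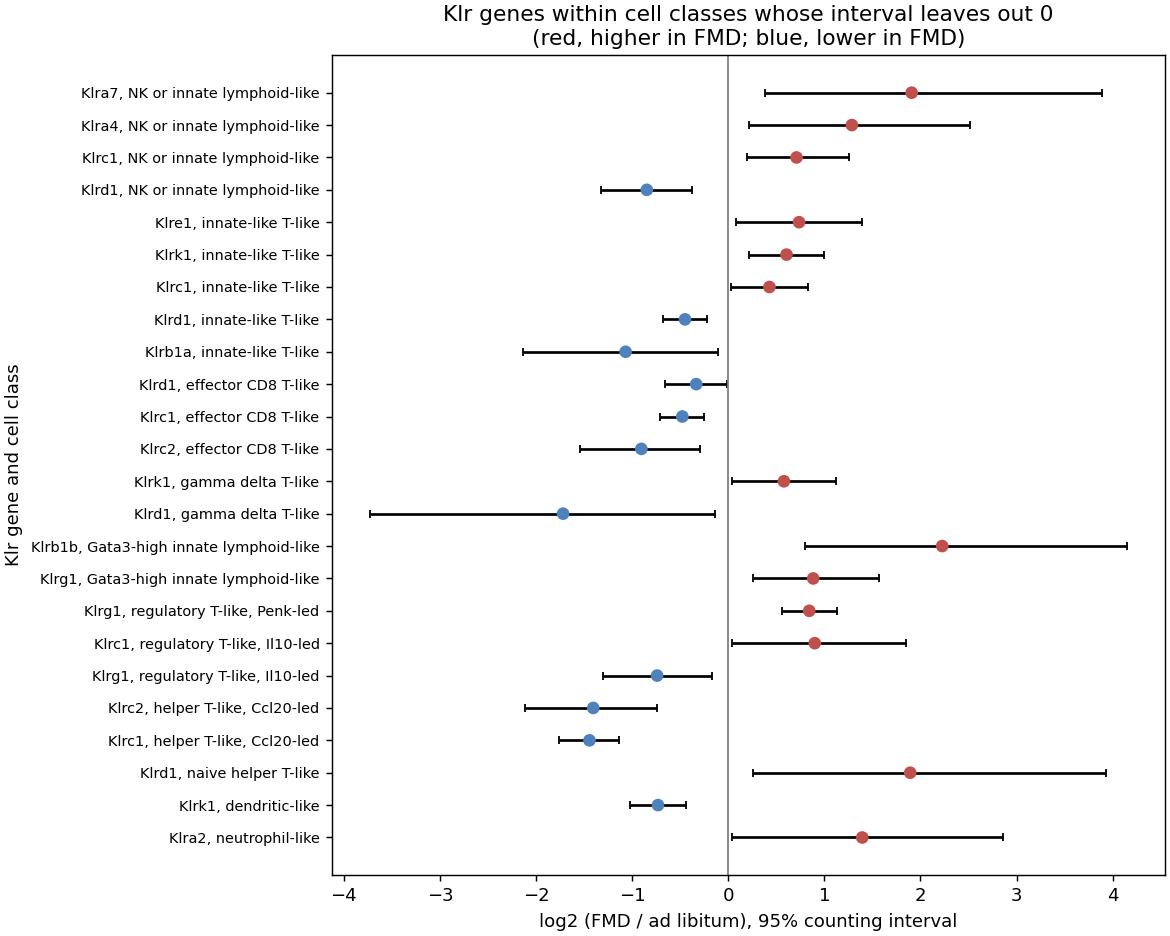
Log2 ratio of FMD over ad libitum CPM (x axis) for the 24 pairs of a Klr gene and a cell class whose 95% counting interval (bars) leaves out 0, ordered by class, with red points higher and blue points lower in FMD. Klrc1 and Klrc2 in Ccl20-led helper T-like cells and Klrd1 in 4 lymphoid classes lie below 0. Klrc1, Klrd1, Klrk1 and Klrg1 each lie on both sides of 0 across classes.

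Genes that act with the receptors were read over all kept cells. Of 15 adaptor and proximal signalling genes, all tested, none was at least 2-fold apart, and intervals lay above 0 for 4 and below 0 for 2, where 16.8% and 12.2% of all genes had such intervals. Tyrobp had 188 CPM in FMD and 137 CPM in ad libitum cells (log2 ratio 0.45, 0.39 to 0.51), and Fcer1g had 132 and 104 CPM (0.34, 0.28 to 0.41). Both genes were at 2160 and 2060 CPM in macrophage-like cells, of which there were 62 in FMD and 23 in ad libitum. They were at 4530 and 3250 CPM in neutrophil-like cells, of which there were 50 in FMD and 70 in ad libitum, and the part of either class was not tested. Of 17 ligand genes, 16 were in the gene list and 8 were tested, with intervals above 0 for 2 and below 0 for 4. H2-T23, coding for the Qa-1 heavy chain that CD94/NKG2 receptors bind, had 248 CPM in FMD and 271 CPM in ad libitum cells (−0.13, −0.17 to −0.08), and Clec2d had 96.6 and 86.9 CPM (0.15, 0.07 to 0.23). Of 12 transcription factor genes all were tested, with intervals above 0 for 8 and below 0 for none, against the same shares of all genes. Their median log2 ratio was 0.11, beside 0.01 over all genes. Of 11 other killer cell genes tested, Gzma alone was at least 2-fold apart, where 1.62% of all genes were, at 27.0 CPM in FMD and 62.2 CPM in ad libitum cells (−1.21, −1.33 to −1.08).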

How the data were processed

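The deposited files are UMI counts per gene and barcode for 1 FMD and 1 ad libitum library; the software version is 3.1.0 per the file headers, and the submitters' processing notes name Cell Ranger 3.1.0, CASAVA 1.8, Seurat 2.3.4 and GRCm38 with no role given. The deposited gene and barcode lists hold names, and the lowest barcode total was 500 UMIs.

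Barcodes with under 200 genes (441 FMD, 475 ad libitum) or over 20% mitochondrial UMIs (694, 661) were left out. Doublets were removed as cells with at least 5 UMIs and 0.5 per 1000 UMIs of 2 of 3 marker panels (134, 98). Cells were clustered with 2000 variable genes without Klr genes, 30 components, 15 neighbours and Leiden resolution 1, in all cells and again in T and innate lymphoid and in myeloid cells (leidenalg 0.10.2, scanpy 1.11.5). The rule that names clusters from markers was written after clusters were seen. Members and gene lists were chosen with earlier results of these data known. Members with at least 100 UMIs (20 per class) were given values, and others UMIs only.

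Counts have exact Poisson, shares Clopper-Pearson and log2 ratios conditional binomial 95% intervals, which cover counting error between UMIs and not variation between mice. For shares, cells were thinned to 1000 UMIs, which left out 69 FMD and 94 ad libitum cells. The interval code was tested on simulated data. Alternatives covered scaling, filters, clustering, thinning and single cells. The promoter motifs and the Il17a and Il17f split were chosen after seeing the data.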

Additional observations from a re-analysis of the deposited data

Results flagged for a closer look

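For 4 members the interval of the log2 ratio lay above 0 in one class and below 0 in another, and both ratios kept their sign without the cell with the most UMIs in each library. The share of all genes that meet this rule was not counted, so the number of members cannot be read as a trait of the family. Of all gene and class pairs, 12.2% had an interval that left out 0. These differences between classes were not tested, since each diet is 1 library. Klrg1 had log2 ratios of 0.88 in Gata3-high innate lymphoid-like cells and −0.74 in regulatory T-like cells led by Il10. Klrd1 had 1.89 in naive helper T-like cells, which rests on 16 UMIs in FMD and 4 in ad libitum cells, and −1.72 in gamma delta T-like cells, which rests on 4 and 20. Klrk1 had 0.61 in innate-like T-like cells and −0.73 in dendritic-like cells. Klrc1 had 0.90 in regulatory T-like cells led by Il10, with 60 UMIs in FMD and 14 in ad libitum cells, and −1.44 in helper T-like cells led by Ccl20.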

How the results depend on the processing

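No paired analysis was possible because each diet has 1 library and the libraries share only the number 1. The same reason prevents leaving out a replicate. The summed level over all kept cells stayed within its interval under all 6 alternatives run. By class, the log2 ratio of helper T-like cells together was −0.80, and −0.43 after thinning to 1000 UMIs. Without the member with most UMIs it was −0.39 in helper, 0.51 in regulatory, −0.35 in CD8 and 0.25 in innate-like T-like cells, where the reported values were 0.04 in regulatory, −0.50 in CD8 and 0.01 in innate-like T-like cells. Innate-like T-like cells had 0.28 at Leiden resolution 0.5 and 0.17 with Klr genes kept, and dendritic-like cells had −0.34 after thinning. Innate lymphoid-like cells together reversed, at −0.33 as reported and 0.018 at resolution 0.5. Penk-led regulatory cells reversed to −2.08 without Klrg1. Klra6 over all cells reversed to 0.48 after thinning, Klrb1a in innate-like T-like cells to 0.11 at resolution 0.5, and Klra4 in the NK or innate lymphoid-like class to −0.46 without the fullest cell of each library. The cause was not tested. Klrc1 in Ccl20-led helper T-like cells lay between −1.81 and −1.41 under the 6 alternatives run for it. Thinning was not among them. After thinning, the shares of these cells with a Klrc1 UMI had overlapping intervals in the 2 libraries. No member was at least 2-fold apart among 13 with at least 100 UMIs, but 2 of 24 were with at least 20 and 3 of 26 with at least 1 UMI. The share of all genes was counted only at 100 UMIs, so the counts at lower limits have no background. Members over all cells whose interval left out 0 numbered 8, and 4 after thinning, which leaves fewer UMIs. Class and member pairs numbered 24, and 15 at resolution 2. The shares of all genes after thinning and at resolution 2 were not counted. The FMD minus ad libitum difference in the share of helper T-like cells with a Klr UMI was −1.21 percentage points, −5.38 without thinning and −5.07 at 2000 UMIs. After thinning, the share of the family's UMIs was 11.3% of FMD for helper, 16.4% of FMD and 22.1% of ad libitum for CD8, 24.7% of ad libitum for innate-like T-like, 28.1% of FMD and 13.6% of ad libitum for innate lymphoid-like, and 6.20% of FMD and 5.61% of ad libitum for dendritic-like cells, since thinning gives each cell equal weight. Without thinning, co-detection differences were 49.7 points for Klrc1 and Klrc2 in effector CD8, 44.4 for Klrd1 and Klrk1 in dendritic-like and 52.6 for Klrd1 and Klre1 in NK or innate lymphoid-like cells. Counting intervals are wide in classes with few cells and for genes with few UMIs, and shares of cells or of UMIs move with the depth they are read at. The added alternatives, which leave out single cells or members or repeat the gene values by class, were chosen after seeing the data.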

Other observations

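The barcodes left out by the filters also carried Klr UMIs, at 156.8 CPM (142.1 to 172.6) in 1269 FMD barcodes and 183.1 CPM (164.2 to 203.7) in 1234 ad libitum barcodes. With the FMD class levels weighted by the UMI shares of the ad libitum classes, the summed Klr level was 171 CPM in FMD beside 184 CPM in ad libitum cells.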
